A study of Oryctolagus cuniculus with 24 samples.

Results

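Biglycan (BGN), fibromodulin (FMOD), prolargin (PRELP) and chondroadherin (CHAD) are leucine-rich matrix proteins whose genes lie outside the gene clusters that hold keratocan (KERA) and osteoglycin (OGN). They were taken by symbol from the gene count table, where all 4 were found among 23428 genes, and all 4 passed the filter on low counts together with 13308 genes in all. RNA was sequenced from first-passage primary rabbit corneal keratocytes, the stromal cells of the cornea, kept for 6 days on collagen-coated glass, with 8 libraries in each of 3 conditions. Myofibroblast cultures were given 5 ng/mL TGF-β1, added to the serum-free medium at both medium changes, on day 1 and on day 3. Fibroblast cultures stayed in serum-free medium at the change of day 1 and were moved to DMEM with 10% fetal bovine serum (FBS) on day 3. Keratocyte cultures were kept in serum-free medium throughout. The FBS cultures therefore differ from both others in base medium, and from the TGF-β1 cultures also in the time of exposure. The labels do not say whether replicates came from separate animals or cultures, and p-values measure only the spread between these libraries, which may be technical.

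Small leucine-rich proteoglycans are secreted proteins that bind collagen fibrils through an arc of leucine-rich repeats and limit how thick the fibrils grow. In the corneal stroma, where narrow and evenly spaced fibrils let light pass, keratan sulfate forms such as lumican and keratocan and the dermatan sulfate form decorin are the abundant members. Biglycan is the closest relative of decorin, carries chondroitin or dermatan sulfate chains, and signals through Toll-like receptors when released. Fibromodulin is the closest relative of lumican and binds the same region of type I collagen. Prolargin ties collagen to heparan sulfate proteoglycans of basement membranes through a basic tail, and chondroadherin is a cartilage protein that binds type II collagen and integrin α2β1.

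Total counts per library ran from 15410285 to 20911192 with TGF-β1, from 15659561 to 22528261 with FBS and from 17151397 to 21540864 in serum-free medium. Levels below are counts scaled to library size (CPM) with TMM-scaled sizes, and levels compared between genes are the deposited FPKM, which also divide by gene length. The myofibroblast marker ACTA2 had 231 ± 125 CPM with TGF-β1, 479 ± 221 CPM with FBS and 2.92 ± 2.10 CPM in serum-free medium (SD, n = 8 each), and the keratocyte marker KERA had 293 ± 46.2, 237 ± 113 and 8807 ± 1328 CPM in the same 3 conditions. Of the 9 tested fibroblast and myofibroblast markers, 8 were higher and 1 lower with TGF-β1 than in serum-free medium, 6 were higher and 3 lower with FBS than in serum-free medium, and 4 were higher and 3 lower, ACTA2 among the lower, with TGF-β1 than with FBS. Of the 10 tested keratocyte markers, 9 were lower and 1, AQP1, higher with TGF-β1 than in serum-free medium, and all 10 were lower with FBS. Between the treatments, 7 were higher with TGF-β1 than with FBS and 1, CD34, was lower. KERA (log2 fold change 0.30, adjusted p = 0.195, edgeR) and ALDH1A1 (-0.18, adjusted p = 0.301) did not pass there. Of all tested genes 31.2% were higher and 33.1% lower with TGF-β1 than in serum-free medium. With FBS 39.5% were higher and 40.5% lower than in serum-free medium. For TGF-β1 over FBS the shares were 36.9% and 36.4%, near the 44.4% and 33.3% of the fibroblast and myofibroblast markers. Summed corneal epithelial markers reached at most 6.21 CPM in any library and KRT12 had no count. Libraries whose column names carry the numbers 5 to 8 and those numbered 9 to 12 stood apart in many genes, and since the labels do not say what the numbers mean, results are given pooled and within each set of 4 libraries per condition. In bulk cultures, fewer cells of a type and less RNA per cell cannot be told apart.

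All 4 genes were higher with TGF-β1 than in serum-free medium, while with FBS only BGN was higher and FMOD, PRELP and CHAD were lower. The order of levels was therefore TGF-β1, FBS, serum-free for BGN and TGF-β1, serum-free, FBS for the other 3 genes. All 12 comparisons of a gene between a pair of conditions were called, as were 64.3% of all tested genes for TGF-β1 over serum-free, 80.0% for FBS over serum-free and 73.3% for TGF-β1 over FBS. In each of the 12, all 8 libraries of one condition lay on one side of all 8 of the other. Over all genes tested the libraries lay apart in this way, in either direction, in 33.9% for TGF-β1 over serum-free, 52.9% for FBS over serum-free and 46.2% for TGF-β1 over FBS. FMOD, PRELP and CHAD were among the 5.34% of tested genes called higher with TGF-β1 and lower with FBS, and BGN was among the 20.7% called higher with both. A gene is called at an adjusted p under 0.05 in edgeR's quasi-likelihood test, with Benjamini and Hochberg adjustment over all 13308 genes.

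**Figure D1:**
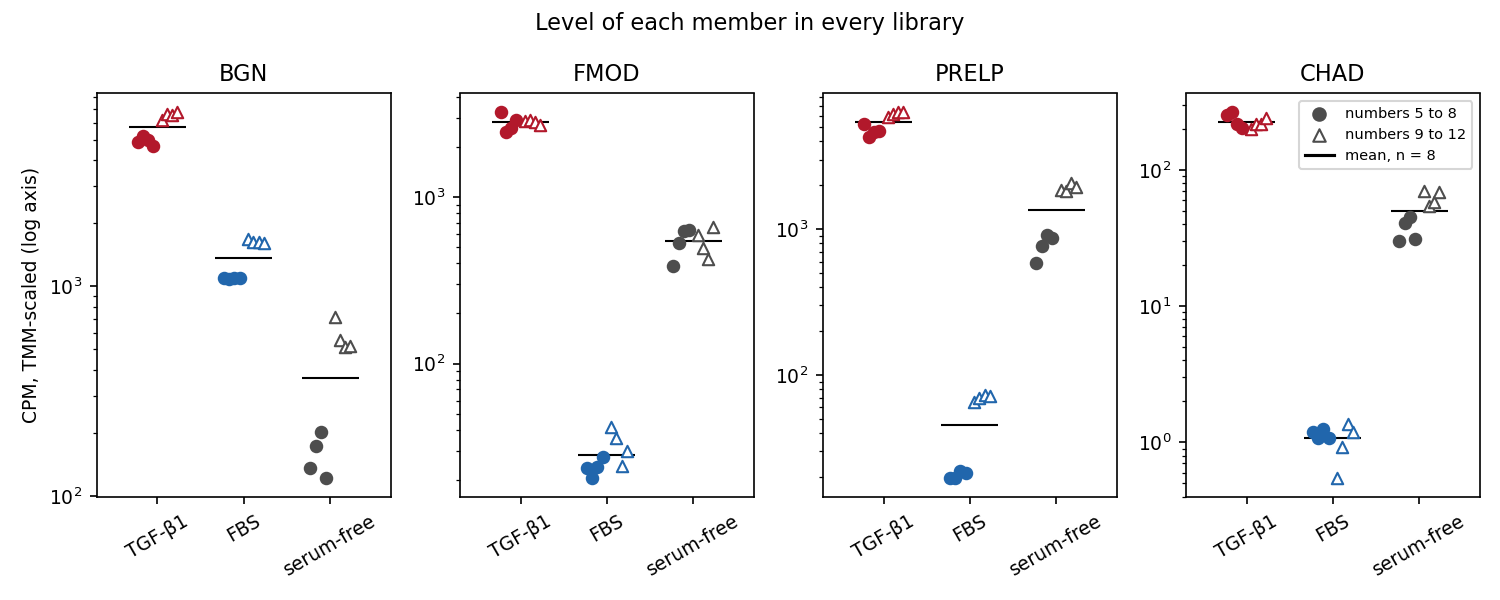
CPM on TMM-scaled library sizes (log axis) of BGN, FMOD, PRELP and CHAD in every library with TGF-β1, with FBS and in serum-free medium; filled circles are libraries numbered 5 to 8, open triangles those numbered 9 to 12, and the line is the mean of 8. No pair of conditions overlaps for any gene, and the sets of library numbers part most for BGN in serum-free medium (121 to 202 against 512 to 712 CPM) and for PRELP with FBS (19.6 to 22.0 against 65.1 to 72.9 CPM).

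BGN is listed on the unplaced scaffold Un0118, 868472 to 879270, minus strand, in a build not given in the sources used here. It ranged from 4653 to 6809 CPM with TGF-β1 (median 5721), from 1085 to 1686 CPM with FBS (median 1359) and from 121 to 712 CPM in serum-free medium (median 357). The highest serum-free value lay below the lowest FBS value, and the highest FBS value below the lowest TGF-β1 value. BGN was 15.7-fold higher with TGF-β1 than in serum-free medium (log2 fold change 3.97 ± 0.32 SE, adjusted p = 3.41e-11, edgeR). With FBS it was 3.73-fold higher than in serum-free medium (1.90 ± 0.29, adjusted p = 1.62e-06), and with TGF-β1 it was 4.20-fold higher than with FBS (2.07 ± 0.29, adjusted p = 5.83e-07).

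The serum-free level of BGN differed between the sets of library numbers. Libraries numbered 9 to 12 had 3.64-fold more BGN than those numbered 5 to 8 in serum-free medium (adjusted p = 2.21e-12, edgeR), against 1.5-fold with FBS and 1.32-fold with TGF-β1. The difference between sets was called for 43.7% of all tested genes in serum-free medium, 48.4% with FBS and 28.0% with TGF-β1. The rise of BGN with TGF-β1 over serum-free medium was accordingly 31.4-fold in the libraries numbered 5 to 8 and 11.4-fold in those numbered 9 to 12, and the rise with FBS was 6.95-fold and 2.87-fold. TGF-β1 over FBS gave 2.17 and 1.99 on the log2 scale in the same sets, and these did not differ beyond their spread (difference -0.18, adjusted p = 0.430). The 4 libraries of each condition stayed apart from those of the others within both sets.

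A gene listed by number, LOC108175819, overlaps the start of BGN by 877 bases on the opposite strand. Its mean level was 4.60 CPM with TGF-β1, 2.15 CPM with FBS and 0.167 CPM in serum-free medium, with log2 fold changes of 4.72 for TGF-β1 over serum-free and 3.63 for FBS over serum-free. Whether counting used strand is not stated, so reads of this gene and of BGN over the shared bases cannot be told apart.

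FMOD is listed on chromosome 16, 68440312 to 68449022, plus strand. It ranged from 2467 to 3252 CPM with TGF-β1 (median 2847), from 20.5 to 41.9 CPM with FBS (median 25.8) and from 388 to 661 CPM in serum-free medium (median 565). The lowest TGF-β1 library was well above the highest serum-free one, and the highest FBS library was far below the lowest serum-free one. FMOD was 5.17-fold higher with TGF-β1 than in serum-free medium (log2 fold change 2.37 ± 0.14 SE, adjusted p = 3.47e-14, edgeR) and 19.2-fold lower with FBS than in serum-free medium (-4.26 ± 0.15, adjusted p = 3.70e-19). TGF-β1 cultures held 99.2-fold more FMOD than FBS cultures (6.63 ± 0.17, adjusted p = 1.29e-21).

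No treatment effect on FMOD was called different between the sets of library numbers with all 24 libraries. Its log2 fold change for TGF-β1 over serum-free was 2.37 in the libraries numbered 5 to 8 and 2.38 in those numbered 9 to 12. For FBS over serum-free the values were -4.51 and -4.04 (difference 0.47, adjusted p = 0.123, edgeR), and for TGF-β1 over FBS they were 6.88 and 6.42 (difference -0.46, adjusted p = 0.124). The first was called without serum-free replicate 1 (0.60, adjusted p = 0.0338) and without FBS replicate 7 (0.59, adjusted p = 0.0398), and the second without FBS replicate 7 (-0.58, adjusted p = 0.038). Within FBS, the libraries numbered 9 to 12 had 1.38-fold more FMOD than the others (adjusted p = 0.0175).

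PRELP is listed on chromosome 16, 68341649 to 68353884, minus strand, 86427 bases from FMOD. It ranged from 4299 to 6378 CPM with TGF-β1 (median 5572), from 19.6 to 72.9 CPM with FBS (median 43.5) and from 582 to 2057 CPM in serum-free medium (median 1376). Each condition held a lower group of 4 libraries and a higher group of 4, which were the sets of library numbers. PRELP was 4.04-fold higher with TGF-β1 than in serum-free medium (log2 fold change 2.01 ± 0.32 SE, adjusted p = 5.13e-06, edgeR) and 29.9-fold lower with FBS than in serum-free medium (-4.90 ± 0.37, adjusted p = 2.46e-12). TGF-β1 over FBS came to 121-fold (6.92 ± 0.40, adjusted p = 2.14e-14).

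Within the sets, PRELP was higher with TGF-β1 than in serum-free medium by 2.60 on the log2 scale in the libraries numbered 5 to 8 and by 1.69 in those numbered 9 to 12 (difference -0.91, adjusted p = 3.11e-05, edgeR). Over all tested genes this difference was called for 10.3%. For TGF-β1 over FBS the fold was 229 in the libraries numbered 5 to 8 and 88.4 in those numbered 9 to 12 (difference -1.37 on the log2 scale, adjusted p = 6.34e-08), where 23.9% of genes were called. For FBS over serum-free the values were -5.24 and -4.78 (difference 0.46, adjusted p = 0.016), with 22.4% of genes called; this last call was lost when neighbouring libraries were summed or when total library sizes were used. Every one of these within-set effects kept the direction of the pooled value.

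CHAD is listed on chromosome 19, 37254563 to 37258436, plus strand. It ranged from 199 to 268 CPM with TGF-β1 (median 218), from 0.544 to 1.36 CPM with FBS (median 1.13) and from 29.9 to 70.0 CPM in serum-free medium (median 50.1). The FBS values rest on 11 to 32 counts per library, and all 8 lay far below the lowest serum-free library. CHAD was 4.54-fold higher with TGF-β1 than in serum-free medium (log2 fold change 2.18 ± 0.15 SE, adjusted p = 2.66e-12, edgeR) and 46.1-fold lower with FBS than in serum-free medium (-5.53 ± 0.20, adjusted p = 5.37e-19). TGF-β1 over FBS came to 209-fold (7.71 ± 0.21, adjusted p = 4.65e-21).

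The rise of CHAD with TGF-β1 was 2.67 on the log2 scale in the libraries numbered 5 to 8 and 1.80 in those numbered 9 to 12 (difference -0.87, adjusted p = 0.00139, edgeR). In serum-free medium the libraries numbered 9 to 12 had 1.71-fold more CHAD than the others. For FBS over serum-free the values were -5.00 and -5.95 (difference -0.96, adjusted p = 0.0189), and the call of this difference was lost without FBS replicate 5, the library with the lowest CHAD level (-0.76, adjusted p = 0.0663). For TGF-β1 over FBS the sets gave 7.67 and 7.75.

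The whole span of CHAD, 3874 bases, lies inside that of ACSF2, a gene for an acyl-CoA synthetase on the opposite strand. ACSF2 averaged 64.2 ± 12.7 CPM with TGF-β1, 110 ± 31.3 CPM with FBS and 83.1 ± 4.61 CPM in serum-free medium (SD, n = 8 each). Its log2 fold change was -0.37 for TGF-β1 over serum-free (adjusted p = 0.0213, edgeR) and 0.41 for FBS over serum-free (adjusted p = 0.00902), the opposite direction to CHAD in both. In the FBS cultures, where the mean of ACSF2 was highest, CHAD stood near 1 CPM. In the libraries numbered 5 to 8 alone ACSF2 was not higher with FBS (-0.05).

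**Figure D2:**
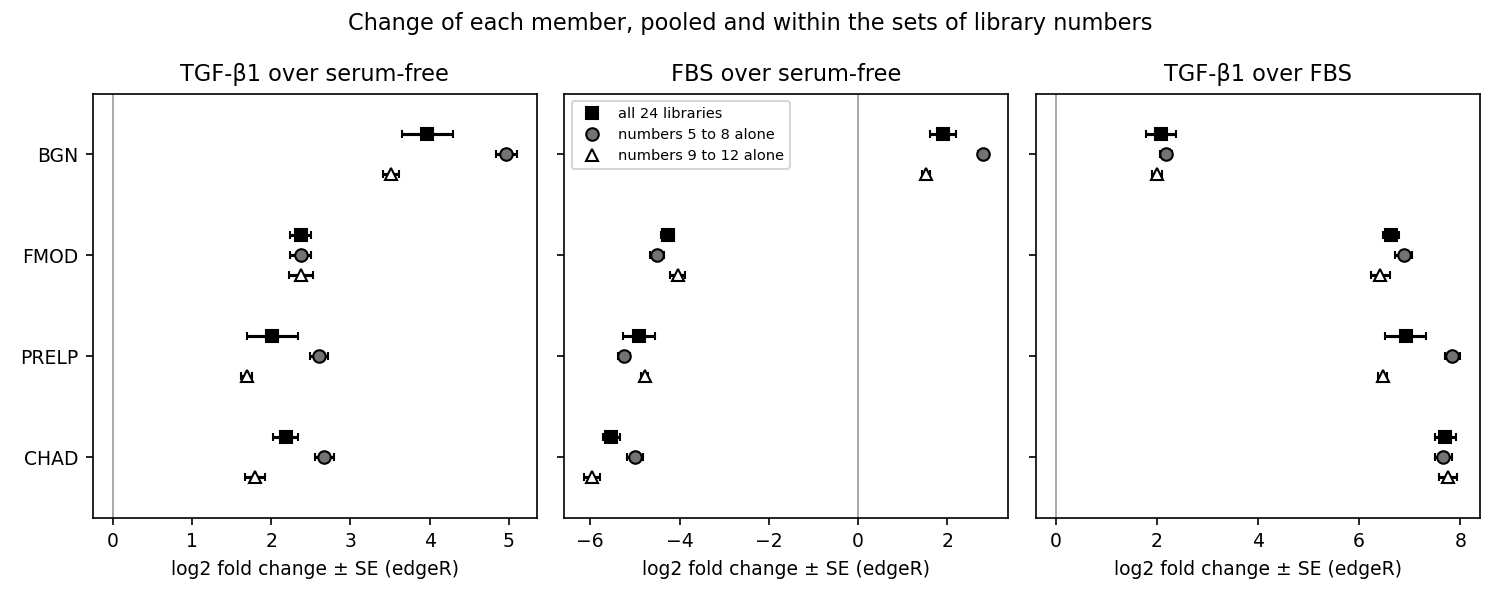
Log2 fold change with its standard error from edgeR for BGN, FMOD, PRELP and CHAD in the 3 comparisons, over all 24 libraries (squares), in the libraries numbered 5 to 8 alone (circles) and in those numbered 9 to 12 alone (triangles). Every value keeps its side of 0; the sets part for BGN against serum-free medium (4.97 and 3.51 with TGF-β1, 2.80 and 1.52 with FBS) and nearly coincide for FMOD with TGF-β1 (2.37 and 2.38).

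Per length of transcript, BGN was the most abundant of the 4 with TGF-β1, at 2535 ± 403 FPKM, followed by PRELP at 1610 ± 255, FMOD at 1094 ± 93.8 and CHAD at 215 ± 22.2 FPKM (SD, n = 8 each). By mean FPKM these levels ranked 18, 26, 42 and 308 among the 23428 genes of the TGF-β1 cultures. With FBS, BGN had 600 ± 126 FPKM and rank 112, while PRELP had 13.2 ± 7.72, FMOD 10.97 ± 2.69 and CHAD 1.02 ± 0.244 FPKM, at ranks 4891, 5511 and 10714. The order of PRELP and FMOD with FBS turned with the set of library numbers, as PRELP averaged 6.07 and FMOD 9.26 FPKM in the libraries numbered 5 to 8, and 20.4 and 12.7 FPKM in those numbered 9 to 12. In serum-free medium the order was PRELP at 396 ± 179 FPKM, FMOD at 211 ± 39.6, BGN at 160 ± 101 and CHAD at 47.3 ± 14.5 FPKM. There too the order of FMOD and BGN turned, with 213 and 70.1 FPKM in the libraries numbered 5 to 8, and 209 and 251 FPKM in those numbered 9 to 12. The ranges of BGN (53.4 to 312 FPKM) and FMOD (152 to 254 FPKM) overlapped in serum-free medium, and that of PRELP (173 to 595 FPKM) overlapped both. CHAD (28.6 to 66.1 FPKM) lay below every FMOD and PRELP value there and overlapped the lowest BGN libraries.

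The 4 genes made up 33.0 ± 7.40% of the summed FPKM of 17 small leucine-rich proteoglycan genes with TGF-β1 and 31.8 ± 3.34% with FBS, against 2.51 ± 1.18% in serum-free medium (SD, n = 8 each). The sum itself was 16920 ± 2190 FPKM with TGF-β1, 2022 ± 632 FPKM with FBS and 34811 ± 6200 FPKM in serum-free medium. In FBS cultures BGN alone held 30.6% of the sum, and FMOD, PRELP and CHAD held 0.568%, 0.603% and 0.0559%. In TGF-β1 cultures the share was spread over BGN (15.4%), PRELP (9.78%), FMOD (6.58%) and CHAD (1.28%). In serum-free medium PRELP held 1.23%, FMOD 0.626%, BGN 0.506% and CHAD 0.144%. These shares describe the libraries and carry no test.

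The balance with their closest relatives is given as a ratio within each library, with no test. The FPKM ratio of BGN to decorin (DCN) was 0.665 ± 0.198 with TGF-β1 and 0.827 ± 0.111 with FBS, against 0.0147 ± 0.0102 in serum-free medium, and the TGF-β1 and FBS ranges overlapped (0.422 to 0.897 and 0.663 to 0.948). The ratio of FMOD to lumican (LUM) was 0.306 ± 0.0660 with TGF-β1, 0.0268 ± 0.00779 with FBS and 0.0299 ± 0.00715 in serum-free medium, so the FBS and serum-free ranges overlapped (0.0152 to 0.0387 and 0.0180 to 0.0398). LUM and FMOD were both lower with FBS than in serum-free medium, by 4.00 and 4.26 on the log2 scale.

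**Figure D3:**
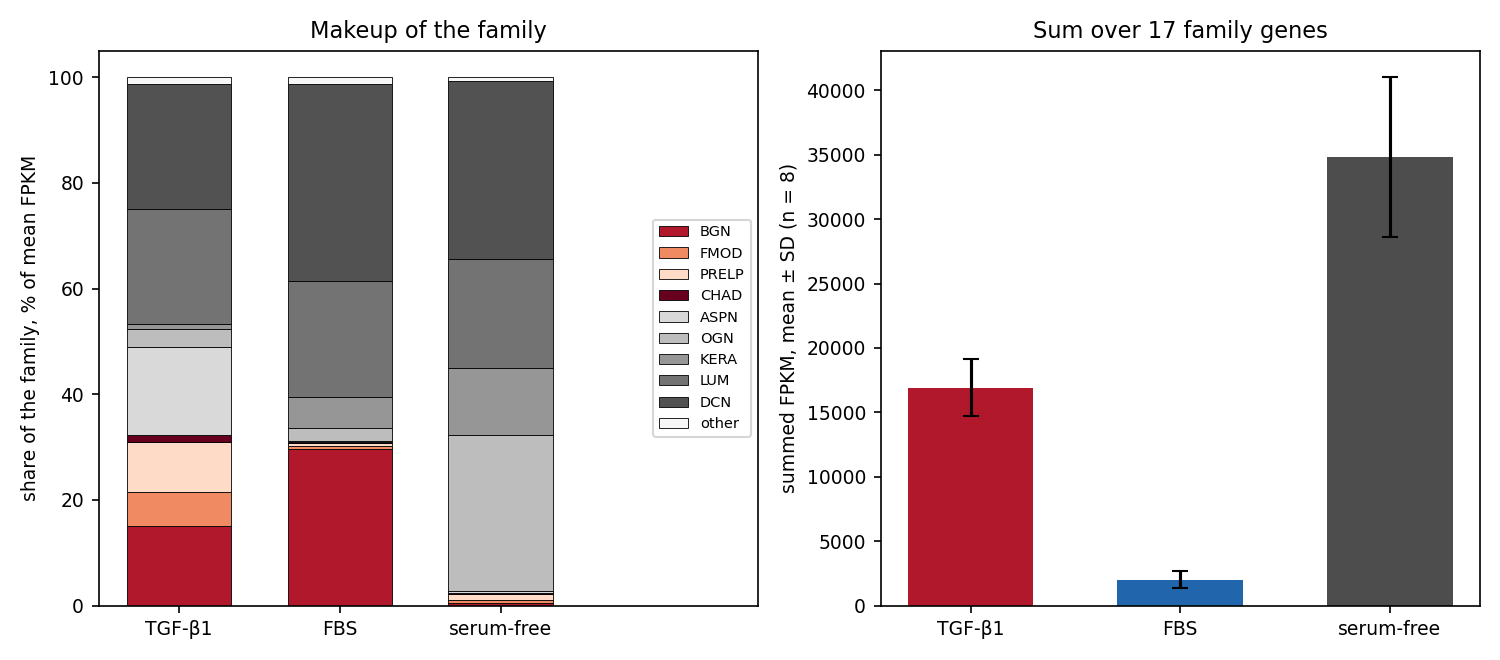
Left, share of each gene in the summed mean FPKM of 17 small leucine-rich proteoglycan genes with TGF-β1, with FBS and in serum-free medium; right, the sum itself as mean ± SD of 8 libraries. BGN, FMOD, PRELP and CHAD, at the foot of each bar, fill like parts of the bars for TGF-β1 and FBS, nearly all of it BGN with FBS, and the sum is lowest with FBS (2022 FPKM) and highest in serum-free medium (34811 FPKM).

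Of the 18 genes listed as small leucine-rich proteoglycans, 17 are in the table and 16 were tested. With TGF-β1, 7 of the 16 were higher than in serum-free medium and 9 were lower (median log2 fold change -0.61, against -0.03 over all genes), where 31.2% of all tested genes were called higher and 33.1% lower. The 7 were the 4 genes described here, asporin (ASPN, 4.42), ECM2 (0.76) and opticin (OPTC). With FBS, 14 of 16 were lower than in serum-free medium and BGN was the 1 gene called higher (median -4.13, against -0.04), where 39.5% of all genes were called higher and 40.5% lower. TSKU, the remaining gene, did not pass (log2 fold change -0.0036, adjusted p = 0.970, edgeR).

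The 9 relatives that were lower with TGF-β1 than in serum-free medium were DCN, LUM, KERA, OGN and OMD, and also EPYC (-3.11), CHADL (-2.37), PODN (-1.31) and TSKU (-0.26). DCN had log2 fold changes of -1.56 for TGF-β1 over serum-free and -3.95 for FBS over serum-free, and LUM had -0.96 and -4.00. KERA had -4.91 and -5.21, OGN had -4.09 and -7.79, and osteomodulin (OMD) had -1.80 and -7.41 for the same pair of comparisons. ASPN, next of kin to DCN and BGN, moved as FMOD, PRELP and CHAD did, with 4.42 and -4.36. ECM2 did so too, with 0.76 and -6.06. OPTC was also called higher with TGF-β1 and lower with FBS, the latter on 12 counts in serum-free medium and 0 with FBS. Between the treatments, 12 of the 16 genes were higher with TGF-β1 than with FBS and TSKU was lower (-0.25), while KERA (0.30, adjusted p = 0.195), EPYC (0.79, adjusted p = 0.0504) and CHADL (0.42, adjusted p = 0.381) did not pass in edgeR, against 36.9% of all genes called higher and 36.4% lower.

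OPTC, which codes for the eye protein opticin, lies 2539 bases from PRELP on the same strand. Its counts over 8 libraries summed to 478 with TGF-β1, 0 with FBS and 12 in serum-free medium. With an assumed 3 counts over the group in place of the 0 with FBS, OPTC was 223-fold higher with TGF-β1 than with FBS. This value takes no account of the spread between libraries. BTG2, a gene that restrains cell division and lies 22412 bases from FMOD on the other side, had 30.9 ± 5.36 CPM with TGF-β1, 8.55 ± 1.47 CPM with FBS and 32.0 ± 5.89 CPM in serum-free medium (SD, n = 8 each). It was lower with FBS (log2 fold change -1.90) and did not pass for TGF-β1 over serum-free (-0.05, adjusted p = 0.739, edgeR).

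**Figure D4:**
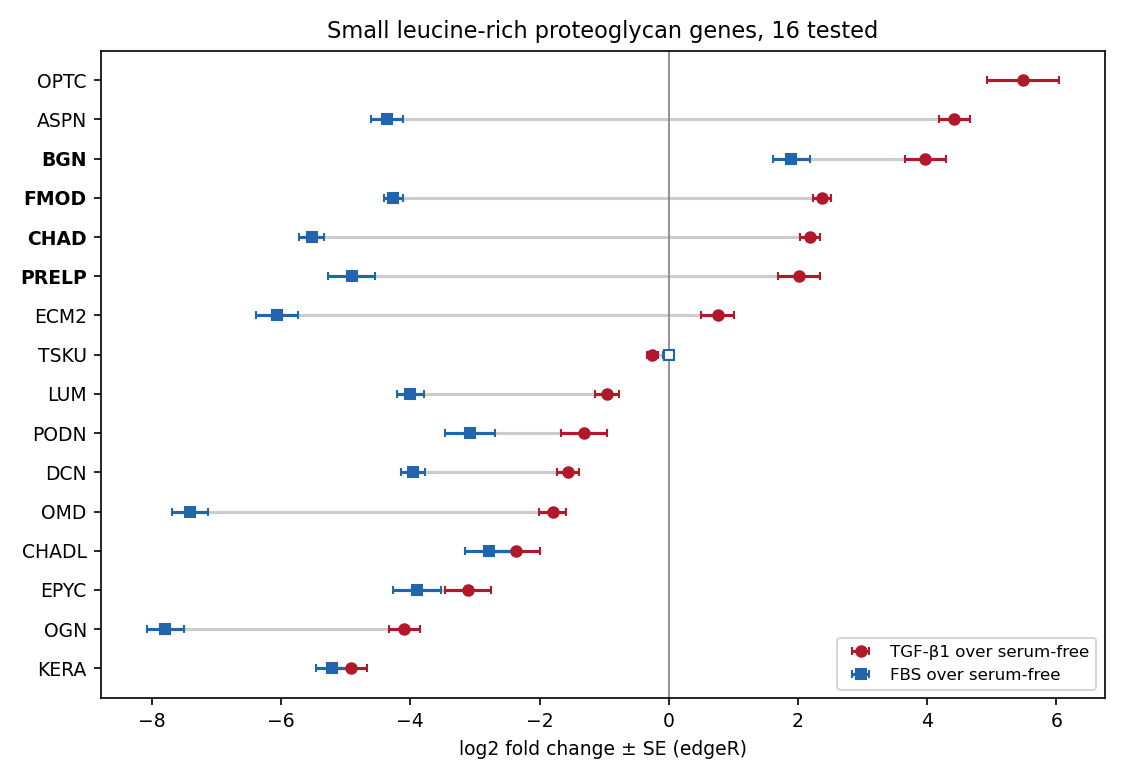
Log2 fold change with its standard error (edgeR) of 16 small leucine-rich proteoglycan genes for TGF-β1 over serum-free (circles) and FBS over serum-free (squares), ordered by the first; open symbols did not pass an adjusted p of 0.05, and OPTC has no FBS symbol because it had 0 counts there. Both comparisons share the serum-free libraries. BGN is the 1 gene to the right of 0 in both, while FMOD, PRELP and CHAD, like ASPN and ECM2, lie right with TGF-β1 and left with FBS.

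Biglycan carries chondroitin or dermatan sulfate chains, and of 20 tested genes for making those chains 14 were higher with TGF-β1 than in serum-free medium and 2 lower (median log2 fold change 0.34), while with FBS 8 were higher and 7 lower (median 0.07). The medians over all tested genes, against which this and the next lists stand, were -0.03 and -0.04. The shares of all tested genes called were 31.2% higher and 33.1% lower with TGF-β1, against 70% and 10% of this list, and 39.5% higher and 40.5% lower with FBS, against 40% and 35% of this list, which is near the background. XYLT1, which starts the chain by adding xylose to the core protein, had log2 fold changes of 5.88 for TGF-β1 over serum-free and 2.49 for FBS over serum-free. CHPF, a subunit of the enzymes that lengthen the chain, had 2.08 and 1.05, and the sulfotransferase CHST3 had 3.29 and 2.65. Others of the list moved otherwise: the sulfotransferase CHST7 was lower in both (-1.60 and -3.77), and CSGALNACT2, which helps to start the repeat part of the chain, had -0.86 and 0.42.

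Fibromodulin carries keratan sulfate chains and sulfated tyrosines. Of 9 tested genes for keratan sulfate, 3 were higher and 4 lower with TGF-β1 than in serum-free medium (median -0.19), and 3 were higher and 5 lower with FBS (median -0.37). The 33.3% higher with TGF-β1 is near the 31.2% of all tested genes, and 44.4% were lower, against 33.1%. With FBS the shares were 33.3% and 55.6%, against 39.5% and 40.5% of all tested genes. B3GNT7, which extends the chain, had log2 fold changes of -2.52 for TGF-β1 over serum-free and -6.78 for FBS over serum-free, and the corneal sulfotransferase CHST6 had -2.37 and -3.12, while CHST2, another sulfotransferase of this group, had 4.39 and 4.46. Of 8 tested genes for tyrosine sulfation and the sulfate donor, 3 were higher and 3 lower with TGF-β1, and 2 were higher and 3 lower with FBS. These shares, 37.5% and 37.5% with TGF-β1, are near those of all tested genes. With FBS they were 25% and 37.5%, against 39.5% and 40.5%. The tyrosine sulfotransferases moved in opposite directions, with TPST1 at -2.49 and -2.74 and TPST2 at 2.27 and 2.12, and the donor enzyme PAPSS2 had -1.27 and -2.62. FMOD itself was higher with TGF-β1, as were CHST2 and TPST2, while B3GNT7, CHST6, TPST1 and PAPSS2 were lower.

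The list of proteases that can cut these proteins had 13 tested genes. Of these, PCOLCE and PCOLCE2 code for enhancers of procollagen cleavage and are not proteases. Among the 13, 6 were higher and 6 lower with TGF-β1 than in serum-free medium (median -0.56), and 2 were higher and 10 lower with FBS (median -1.73). The shares were 46.2% and 46.2% with TGF-β1, against 31.2% and 33.1% of all tested genes. With FBS they were 15.4% and 76.9%, against 39.5% and 40.5%. PCOLCE had log2 fold changes of -0.64 and -1.35 over serum-free medium, and PCOLCE2 had 1.31 and -0.02. BMP1, which removes the propeptide of biglycan, had log2 fold changes of 0.40 for TGF-β1 over serum-free and -1.73 for FBS over serum-free. Lower in both were TLL2 (-3.81 and -5.27), TLL1 (-2.08 and -4.31) and HTRA1 (-1.17 and -3.35). In serum-free medium these averaged 18.0, 5.05 and 4421 CPM. The gelatinase MMP2 had 2.23 and -0.76, and the membrane-bound MMP14 had 2.50 and -0.45. ADAMTS1 had 4.75 and 5.00, whereas ADAMTS5 had -0.86 and -3.63. Between the treatments, 11 of the 13 genes, PCOLCE and PCOLCE2 among them, were higher with TGF-β1 than with FBS (median 1.46). Of all tested genes 36.9% were called higher. BMP1 had 2.13, MMP2 2.98, MMP14 2.95 and ADAMTS5 2.77.

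Of 20 tested receptors and signalling partners, 8 were higher and 6 lower with TGF-β1 than in serum-free medium (median -0.04), and 9 were higher and 9 lower with FBS (median 0.09). The shares were 40% and 30% with TGF-β1, against 31.2% and 33.1% of all tested genes. With FBS they were 45% and 45%, against 39.5% and 40.5%, so this list is near the background. TLR2, a receptor for released biglycan, had 20.5 ± 5.33 CPM with TGF-β1 and 7.00 ± 0.795 CPM with FBS, against 164 ± 15.5 CPM in serum-free medium (SD, n = 8 each), with log2 fold changes of -3.00 and -4.55 over serum-free. ITGA2, the α subunit of the integrin that binds chondroadherin, had -4.42 and -4.69, while its partner subunit ITGB1 had 1.49 and 1.01. The hyaluronan receptor CD44 had 3.19 with TGF-β1 and 4.26 with FBS over serum-free medium. TLR2 thus moved opposite to BGN in both comparisons, and ITGA2 moved opposite to CHAD with TGF-β1 and in the direction of CHAD with FBS.

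The collagens to which these proteins bind are the last partner group. Of 15 tested fibril-forming and fibril-binding collagen genes, 5 were higher and 4 lower with TGF-β1 than in serum-free medium (median 0.19), and 13 were lower with FBS (median -2.82). The shares with TGF-β1, 33.3% and 26.7%, were near the 31.2% and 33.1% of all tested genes. With FBS 86.7% were lower, against 40.5% of all tested genes. All 15 were higher with TGF-β1 than with FBS (median log2 fold change 2.54, against 0.01 over all genes), where 36.9% of all tested genes were called higher. COL2A1, the type II collagen gene, had log2 fold changes of 2.15 for TGF-β1 over serum-free and -4.74 for FBS over serum-free, and COL11A1 had 2.31 and -3.69. COL6A2, of the type VI collagen that biglycan binds, had -2.0 and -3.73. COL2A1 and COL11A1 therefore followed the directions of FMOD, PRELP and CHAD, and COL6A2 did not. COL1A1 and COL1A2, of the type I collagen that fibromodulin binds, did not pass for TGF-β1 over serum-free. Their values were 0.14 (adjusted p = 0.412, edgeR) and -0.33 (adjusted p = 0.0878). With FBS they were lower than in serum-free medium (-3.44 and -4.12). COL1A1 averaged 69759 CPM with TGF-β1, 5862 CPM with FBS and 63482 CPM in serum-free medium, and COL2A1 32.2, 0.261 and 7.27 CPM.

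Among 23 tested TGF-β ligands, receptors and direct targets, 16 were higher and 5 lower with TGF-β1 than in serum-free medium (median 2.05), and 11 were higher and 8 lower with FBS (median 0.06). The shares were 69.6% and 21.7% with TGF-β1, against 31.2% and 33.1% of all tested genes. With FBS they were 47.8% and 34.8%, near the 39.5% and 40.5% of all tested genes. The ligand gene TGFB3 had log2 fold changes of 2.36 for TGF-β1 over serum-free, -2.11 for FBS over serum-free and 4.47 for TGF-β1 over FBS. Of 16 tested fibril partners and crosslinkers, 14 were higher and 1 lower with TGF-β1 than in serum-free medium (median 2.02), and 6 were higher and 5 lower with FBS (median 0.30). For this list the shares were 87.5% and 6.25% with TGF-β1. With FBS they were 37.5% and 31.25%, near those of all tested genes.

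Fibromodulin and chondroadherin are known from cartilage and tendon. Of 14 tested cartilage, bone and tendon genes 9 were higher and 3 lower with TGF-β1 than in serum-free medium (median 1.95). With FBS 3 were higher and 6 lower (median -0.31). The shares were 64.3% and 21.4% with TGF-β1, against 31.2% and 33.1% of all tested genes. With FBS they were 21.4% and 42.9%, against 39.5% and 40.5%. ACAN, which codes for the cartilage proteoglycan aggrecan, had log2 fold changes of 6.40 for TGF-β1 over serum-free and 3.37 for FBS over serum-free, and the cartilage transcription factor SOX9 had 3.30 and 1.20. Both were higher with each treatment, as BGN was. MGP, an inhibitor of mineralization, had 4.75 and -1.69, and the tendon transcription factor MKX had 1.00 and -2.82, the directions of FMOD, PRELP and CHAD. The largest rises of the list with TGF-β1 were those of IBSP and SPP1. SPP1 had 8.05 and -0.62, the latter not passing (adjusted p = 0.109, edgeR). IBSP counts over 8 libraries summed to 2127 with TGF-β1, 8 with FBS and 0 in serum-free medium. The 3 genes lower with TGF-β1 were TNMD (-1.77 and -4.96), RUNX2 (-1.21 and 0.05) and ALPL (-3.50 and 0.09). RUNX2 and ALPL did not pass for FBS over serum-free. ALPL averaged 0.05 CPM with TGF-β1, 0.66 CPM with FBS and 0.62 CPM in serum-free medium.

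Chondrocyte markers as a whole moved with CHAD in part. Of 9 listed, 8 are in the table, and their summed level was 334 to 543 CPM with TGF-β1, 45.0 to 90.3 CPM with FBS and 20.5 to 33.8 CPM in serum-free medium. The sum was thus higher with FBS than in serum-free medium, where CHAD was lower. Of the 6 tested, 5 were higher with TGF-β1 than in serum-free medium, and 3 were higher and 2 lower with FBS. Of all tested genes 31.2% were called higher with TGF-β1, and 39.5% higher and 40.5% lower with FBS. COL9A1 had 3 counts in all with TGF-β1 and 0 with FBS and in serum-free medium. ACAN had 143 ± 55.4 CPM with TGF-β1, 17.5 ± 5.77 CPM with FBS and 1.70 ± 1.02 CPM in serum-free medium (SD, n = 8 each), and COL2A1 had 32.2 ± 8.65, 0.261 ± 0.143 and 7.27 ± 2.39 CPM. Their part in the level of CHAD was not tested.

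The summed level of 7 corneal endothelial markers was ordered over the conditions as FMOD, PRELP and CHAD were, with 3320 to 4151 CPM with TGF-β1, 1214 to 1335 CPM with FBS and 1744 to 2149 CPM in serum-free medium. COL8A2 made up most of the TGF-β1 sum, at a mean of 2586 CPM with TGF-β1, 294 CPM with FBS and 1008 CPM in serum-free medium. SLC4A11, an ion transporter of that cell layer, had 0.823, 6.93 and 1.5 CPM in the same conditions. Of the 7 markers, 3 were higher and 3 lower with TGF-β1 than in serum-free medium, and 4 were higher and 2 lower with FBS. Over all tested genes the shares called higher and lower were 31.2% and 33.1% with TGF-β1 and 39.5% and 40.5% with FBS. Their part in the levels of FMOD, PRELP and CHAD was not tested.

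Over all 24 libraries, log2 CPM of FMOD, PRELP and CHAD followed each other with Pearson correlations of 0.980 (FMOD and PRELP), 0.986 (FMOD and CHAD) and 0.978 (PRELP and CHAD), whereas BGN gave 0.329, 0.315 and 0.279 with the same 3 genes. All libraries of a condition share its distance from the others. After the mean of each condition was removed, BGN and PRELP gave 0.784 and BGN and CHAD 0.613, while FMOD and CHAD gave -0.223. These values are descriptions over libraries that share conditions and number sets.

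The genes most like each member over the 24 libraries, by Pearson correlation of log2 CPM, differed between BGN and the rest. For BGN they were VEGFA (0.996), ECM1 (0.986), ADIPOR1 (0.985), PLOD3 (0.984) and C1QTNF5 (0.983), all higher with both treatments. VEGFA, a growth factor for blood vessels, had log2 fold changes of 2.84 for TGF-β1 over serum-free and 1.42 for FBS over serum-free, and also followed BGN after the condition means were removed (0.962). For FMOD they were SCN3B (0.996), COL8A2 (0.994), C2H2orf40 (0.994), MAN1C1 (0.993) and FKBP9 (0.993). COL8A2, a collagen gene of the corneal endothelium's basement membrane, had 1.36 and -1.78 for the same comparisons.

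For PRELP the nearest genes were ABHD4 (0.995), DPEP1 (0.994), KLHL24 (0.992), CD9 (0.992) and FBLN5 (0.992). DPEP1, a membrane dipeptidase, had log2 fold changes of 1.72 for TGF-β1 over serum-free and -4.41 for FBS over serum-free. For CHAD they included FAM210B (0.994), CCPG1 (0.990), MAN1C1 (0.990) and YPEL2 (0.989), and YPEL2 had 1.52 and -4.47 for the same comparisons. MAN1C1, a Golgi mannosidase, stood on the lists of both FMOD and CHAD. With Spearman correlation in place of Pearson, 1 of the 5 genes remained for BGN, FMOD and PRELP each and 0 for CHAD.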

How the data were processed

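The authors deposited 1 table of integer read counts per gene for 24 libraries, not normalized, per the file headers and values, and 1 table of FPKM, which the authors normalized by gene length and library size. No source used here names the aligner, the counting program, the strand setting or the genome build. The genes, lists and alternatives were chosen with earlier results of these data known. Counts were fitted in R 4.3.3 with edgeR 4.0.16 (filterByExpr by condition, 13308 genes kept; TMM; 1 coefficient per condition; quasi-likelihood F-test; Benjamini and Hochberg adjustment over all genes; called at 0.05). The step was tested on simulated data. Differences of a treatment effect between the sets of library numbers come from a set-by-treatment term in a separate edgeR fit of all libraries. Differences between the sets within a condition come from another fit, with a set term for each condition. Changes within a set come from fits of its libraries alone. Alternatives used DESeq2 1.42.0, limma 3.58.1 on log2 FPKM and edgeR refits. A symbol was taken from the RefSeq table for 5 of 246 list genes, and 14 list genes are not in the table.

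Of each list the text names called genes with large changes, every tested small leucine-rich proteoglycan gene by count, and the 5 genes most like each member, of which 1 for CHAD is not reported here. BMP1 was named outside that rule for its substrate, PCOLCE because it is not a protease, and ACSF2, LOC108175819 and BTG2 for their position. The labels give the conditions the same replicate numbers. Deviations of libraries with the same number from their condition means had correlations of 0.177 to 0.362 between TGF-β1 and serum-free, 0.115 to 0.429 between FBS and serum-free, and 0.103 to 0.332 between TGF-β1 and FBS. All lie over 0.1, but no correlation was computed between libraries with different numbers. As the number sets stand apart in every condition, these values cannot tell pairing by replicate from a shared set. The main fit holds no pairing, and the replicate numbers were fitted as a block in an alternative. The closest replicates, FBS replicates 1 and 2, differed by a chi-square of 2.83 per gene, above counting noise; as neighbouring libraries were close, 8 libraries may stand for fewer separate units.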

Additional observations from a re-analysis of the deposited data

Results flagged for a closer look

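The effect of a treatment on 3 of the 4 genes differed between the libraries numbered 9 to 12 and those numbered 5 to 8, by the set-by-treatment term in edgeR with adjustment over all tested genes. That term was called for 10.3% of all tested genes for TGF-β1 over serum-free, 22.4% for FBS over serum-free and 23.9% for TGF-β1 over FBS. For BGN the log2 fold change was lower in the libraries numbered 9 to 12 by -1.46 for TGF-β1 over serum-free (adjusted p = 2.66e-07) and by -1.28 for FBS over serum-free (adjusted p = 1.27e-06). For PRELP the differences were -0.91 for TGF-β1 over serum-free (adjusted p = 3.11e-05), 0.46 for FBS over serum-free (adjusted p = 0.016) and -1.37 for TGF-β1 over FBS (adjusted p = 6.34e-08). For CHAD they were -0.87 for TGF-β1 over serum-free (adjusted p = 0.00139) and -0.96 for FBS over serum-free (adjusted p = 0.0189). All effects kept their direction in both sets, with 4 libraries per condition and set. What separates the number sets was not tested, since the labels do not say what the numbers stand for. By Dixon's criterion for 8 values, no library stood out from the others of its condition in CPM of any of the 4 genes.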

How the results depend on the processing

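The 12 changes of BGN, FMOD, PRELP and CHAD kept their direction and their call in all 444 alternatives run, which were 24 libraries left out in turn and 13 other settings for each. The replicate block changed none of these calls; with it BGN had log2 fold changes of 4.20 for TGF-β1 over serum-free, 2.10 for FBS over serum-free and 2.10 for TGF-β1 over FBS. With total library sizes in place of TMM the median of all genes shifted to -0.17, 0.21 and -0.39 in TGF-β1 over serum-free, FBS over serum-free and TGF-β1 over FBS, and 3131 genes were called higher and 6819 lower for TGF-β1 over FBS, against 4917 and 4840.

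The set differences were less steady. With total library sizes that of FMOD for TGF-β1 over serum-free was -0.048 and that of PRELP for FBS over serum-free 0.35 (adjusted p = 0.0613, edgeR). With neighbouring libraries summed, PRELP gave 0.47 (adjusted p = 0.141) and CHAD -0.948 (adjusted p = 0.0649) for FBS over serum-free. Without FBS replicates 5 and 6, CHAD gave -0.62 (adjusted p = 0.189) for FBS over serum-free and -0.25 for TGF-β1 over FBS. Leaving out 1 library at a time gave FMOD -0.10 to 0.14 for TGF-β1 over serum-free, 0.33 to 0.60 for FBS over serum-free and -0.58 to -0.32 for TGF-β1 over FBS, and CHAD -1.12 to -0.76 for FBS over serum-free and -0.12 to 0.24 for TGF-β1 over FBS. By Spearman correlation 1, 1, 1 and 0 of the 5 most similar genes remained for BGN, FMOD, PRELP and CHAD. The causes were not tested.

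Among other named genes, KERA for TGF-β1 over FBS was -0.094 with total library sizes and -0.30 in the libraries numbered 9 to 12, where CHADL was -0.128, and ACSF2 for FBS over serum-free was -0.047 and BTG2 for TGF-β1 over serum-free 0.104 in those numbered 5 to 8. TSKU for FBS over serum-free was 0.25 with total library sizes, 0.056 with no filter, 0.055 in the libraries numbered 5 to 8, 0.051 with neighbours summed, 0.0070 in the fit of only the libraries compared, 0.0030 with the block, 0.00085 with the set as covariate, 0.00051 and 0.00026 on log2 FPKM, and -0.0431 to 0.0378 with 1 library left out. CHAD with FBS is limited by 11 to 32 counts per library.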
